A study of Mus musculus with 2 samples.

Results

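The 41 genes described here encode the machinery with which plasma cells fold, check and export antibody, together with 4 genes that mark the plasma cell itself (Sdc1, Tnfrsf17, Prdm1 and Irf4). They were listed by function, with earlier results of these data known, and all 41 were among the 32285 genes of both count tables. They were read in barcodes with 5% or more of their UMIs (counted molecules) from immunoglobulin genes, called immunoglobulin-rich below: 1421 of 9855 barcodes in the wild type library and 1461 of 10143 in the library labelled transgenic. The comparison group was cluster 0 of the deposited clustering, a B-like cluster, without its immunoglobulin-rich cells, which left 2378 and 2195 cells. All mice were C57BL/6, 8 weeks old, and received 2.0% dextran sulphate sodium (DSS, a polymer that injures the colon epithelium) in their water for 7 days and then plain water for 7 days. On day 14, live cells with the leukocyte surface protein CD45 were sorted from the colon lamina propria and profiled with 10x Genomics 5′ droplet RNA sequencing. The genotypes were wild type and transgenic for E4BP4, the transcription factor encoded by Nfil3, overexpressed in macrophages; the promoter that drives the transgene and the number of mice per library are not given in the sources used here. There was 1 library per genotype and no replicate, so no difference was tested, and every interval below is a 95% interval for counting error alone.

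A plasma cell exports antibody at a rate few other cells match, and every heavy and light chain passes through the endoplasmic reticulum (ER). There the chain enters through the Sec61 channel, loses its signal peptide, is folded by chaperones and disulfide isomerases, and is either packed for the Golgi or sent back to the cytosol for degradation. Load in the ER is sensed by IRE1 (encoded by Ern1), ATF6 and PERK; IRE1 splices the Xbp1 transcript into the form that encodes an active transcription factor, and PERK signals through ATF4 and CHOP (encoded by Ddit3). In the colon most plasma cells make IgA, which is joined by the J chain and carried across the epithelium. Reads were counted per gene, so spliced and unspliced Xbp1 are not told apart here.

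Many ER genes are switched on through an ER stress response element (ERSE) just upstream of their start, and the promoters were searched because the 41 genes are so often induced together. The element was spelled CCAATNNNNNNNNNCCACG and looked for on both strands, from 250 bases before to 50 bases after the start, in RefSeq promoters of GRCm38.p6 (the build also called mm10). A promoter was listed for 35 of the 41 genes, and 9 of the 35 (25.7%) held the element, against 37 of 27025 genes with a promoter (0.137%). The shorter ERSE-II, spelled ATTGGNCCACG, was found in 2 of the 35 (Dnajb11 and Herpud1) and in 12 of all genes (0.0444%). The core of the XBP1-binding element, spelled TGACGTGG, was found in 0 of the 35 and in 193 of all genes (0.714%). The 41 genes were chosen by function, most of them as ER genes, so a larger share than over all genes follows in part from that choice. A match is a run of letters and not evidence of binding. The stretches that follow are from the strand of the gene, and capitals mark the element, which reads CGTGG first where it lies on the other strand. They are shown because the same letters stand before genes with very unlike fold differences, from 67.8-fold (Derl3) to 1.76-fold (Canx) in the wild type comparison below.
Hspa5, chr2:34771995-34772073, plus strand: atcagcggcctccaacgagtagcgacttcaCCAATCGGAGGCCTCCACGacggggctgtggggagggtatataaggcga
Hsp90b1, chr10:86705503-86705581, minus strand: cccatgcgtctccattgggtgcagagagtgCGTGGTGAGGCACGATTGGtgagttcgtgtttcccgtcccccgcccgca
Pdia6, chr12:17266461-17266539, plus strand: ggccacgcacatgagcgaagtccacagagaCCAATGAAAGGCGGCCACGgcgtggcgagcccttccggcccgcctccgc
Creld2, chr15:88819490-88819568, plus strand: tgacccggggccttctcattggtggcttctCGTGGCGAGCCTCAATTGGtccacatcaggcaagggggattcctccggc
Derl3, chr10:75893212-75893290, plus strand: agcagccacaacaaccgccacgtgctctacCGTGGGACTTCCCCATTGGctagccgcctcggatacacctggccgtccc
Dnajc3, chr14:118937797-118937875, plus strand: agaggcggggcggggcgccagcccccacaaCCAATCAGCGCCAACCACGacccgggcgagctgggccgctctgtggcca
Canx, chr11:50325770-50325848, minus strand: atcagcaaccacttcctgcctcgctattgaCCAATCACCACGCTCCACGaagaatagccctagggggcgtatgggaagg
Syvn1, chr19:6046502-6046575, plus strand: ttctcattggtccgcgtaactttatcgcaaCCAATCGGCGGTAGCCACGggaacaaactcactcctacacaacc
The ninth gene with an ERSE was Calr, and Hsp90b1 held a second ERSE farther from its start, which is not shown. Starts are those of the RefSeq promoters and can differ from the gene positions given below, by which the Hspa5 stretch lies inside the gene. The Syvn1 stretch breaks off just before its start, so the sequence searched may not reach 50 bases after the start everywhere. The 11 genes with an ERSE or ERSE-II had a median ratio of 7.50 (wild type) and 6.07 (labelled transgenic) in the comparison below, and the other 24 genes with a listed promoter had 14.1 and 11.7.

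Several features of the libraries bear on every value. The immunoglobulin-rich barcodes held 39.0% and 38.2% of all UMIs, with a median of 20675 (wild type) and 12802 (labelled transgenic) UMIs, against 2456.5 and 2247 in cluster 0. Immunoglobulin made up 53.0% and 52.3% of their UMIs, so every level is given as CPM, counts per 1000000 UMIs outside immunoglobulin genes. Only 165 and 240 of them carry a deposited cluster number, 106 and 146 of these in the unnamed clusters 5 and 7, which have few UMIs per cell. Summed levels of other cells' markers in them were 78.5 and 262 CPM for T cells, 694 and 1410 for macrophages, 543 and 808 for epithelium and 1961 and 159 for neutrophils. Doublets were not removed. Of the immunoglobulin-rich barcodes, 1363 and 1310 held 3 or more UMIs of marker genes of other lineages. The monocyte list among these holds Ly6c2, also listed below as a plasma cell gene, so this is no count of doublets. Of all barcode sequences, 142 occur in both libraries, 5 of them immunoglobulin-rich in both and 38 in 1. Nfil3, the gene the label concerns, stood at 85.1 and 74.7 CPM in macrophage-like cells (ratio 0.877, interval 0.726 to 1.06) and at 23.0 and 25.8 CPM in immunoglobulin-rich barcodes (1.12, 0.95 to 1.33). In monocyte-like cells it stood at 273 and 236 CPM (0.865, 0.779 to 0.960). Whether transcripts of the transgene would be counted under Nfil3 is not known here, so these values do not decide the genotype. The second library is called the library labelled transgenic throughout.

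The first question was how the secretory genes differ between immunoglobulin-rich barcodes and B-like cells of the same library. Of the 41 genes, 36 were higher in immunoglobulin-rich barcodes in each library, the same 36 in both, and 0 were lower. Higher or lower means a ratio of at least 2 either way with an interval that does not hold 1, among genes with at least 20 UMIs over both groups, which all 41 passed. Over all genes tested, 18.2% were higher and 19.8% lower in the wild type library, 19.4% and 13.3% in the library labelled transgenic, and 14.8% were higher in both. The median log2 ratio of the 41 genes was 3.50 and 3.27, against -0.20 and -0.06 over all genes tested. At least 10-fold were 23 and 20 of them. Together the 41 genes took 6.10% and 5.02% of the UMIs outside immunoglobulin genes in immunoglobulin-rich barcodes, and 0.581% and 0.578% in cluster 0. The J chain gene Jchain, which is not one of the 41, took 11.5% and 11.3%, against 0.106% and 0.141%.

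**Figure D1:**
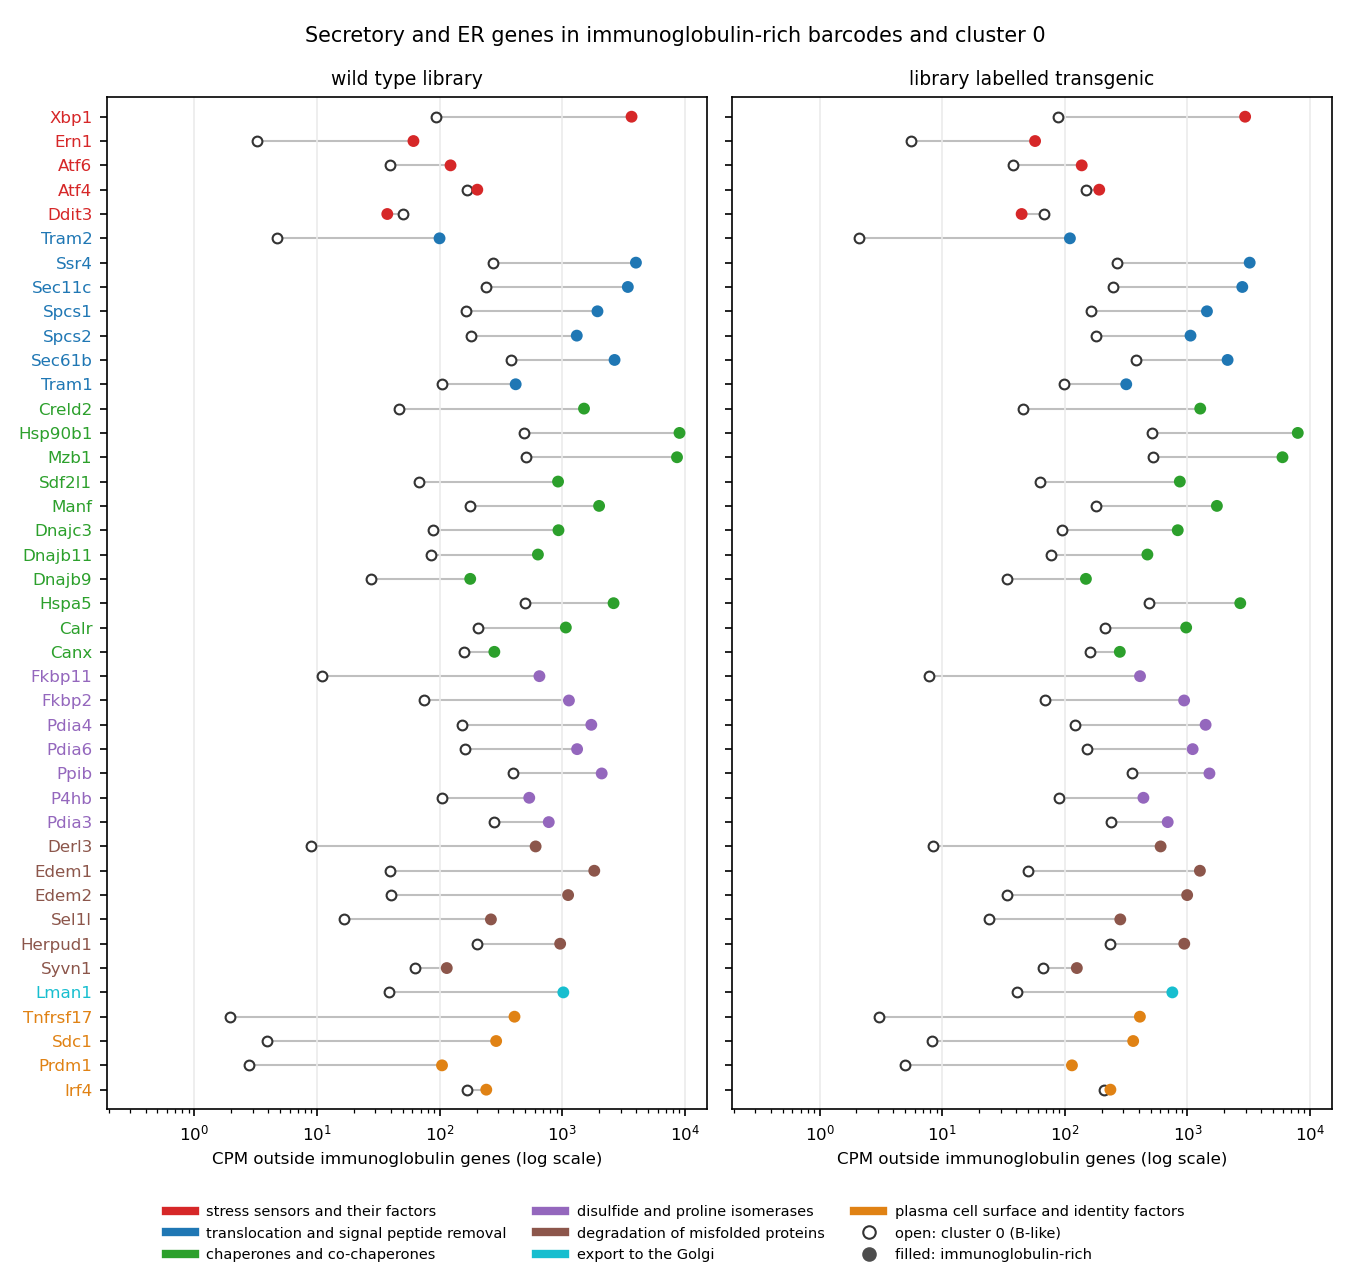
Level of each of the 41 genes in CPM outside immunoglobulin genes (log axis) in cluster 0 (open circles) and in immunoglobulin-rich barcodes (filled circles, coloured by role), wild type library left and library labelled transgenic right. The filled circle lies to the right for 40 of 41 genes in each library; Ddit3 is the exception, and it has one of the 5 shortest lines together with Irf4, Atf4, Canx and Syvn1.

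The genes of plasma cell identity held both the widest difference and one of the narrowest. Tnfrsf17, which encodes the survival receptor BCMA (chr16:11313812-11320074, mm10), was at 408 and 409 CPM in immunoglobulin-rich barcodes and at 1.95 and 3.06 CPM in cluster 0, where it had 12 and 16 UMIs in all. That is a ratio of 209 (119 to 404) in the wild type library and 134 (82.4 to 234) in the library labelled transgenic, the widest of the 41 genes in each. Sdc1, the surface proteoglycan CD138 (chr12:8771323-8793715), was at 289 and 361 CPM against 3.91 and 8.22 CPM, 74.0-fold (49.6 to 116) and 43.9-fold (32.5 to 60.8) higher. Prdm1 encodes BLIMP1, the repressor that ends the B cell programme, and was at 105 and 114 CPM against 2.77 and 4.97 CPM, 37.8-fold (23.5 to 65.1) and 23.0-fold (15.6 to 35.4) higher. Irf4, a transcription factor that B cells also use, differed little: 240 and 235 CPM against 169 and 210 CPM, a ratio of 1.43 (1.33 to 1.53) and 1.12 (1.04 to 1.20). The first 3 genes are nearly silent in cluster 0 and present in immunoglobulin-rich barcodes, while Irf4 is at a like level in both. With immunoglobulin UMIs kept in the total, Irf4 was at 0.685 and 0.547 and 3 other genes with small ratios also turned below 1: Atf4 at 0.587 and 0.628, Canx at 0.848 and 0.858 and Syvn1 at 0.868 and 0.924.

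The sensors split the same way. Xbp1 (chr11:5520659-5525893) was at 3676 and 2953 CPM in immunoglobulin-rich barcodes and at 93.5 and 87.5 CPM in cluster 0, which is 39.3-fold (36.2 to 42.8) and 33.7-fold (30.8 to 37.1) higher. Ern1, whose product splices Xbp1, was at 61.2 and 57.2 CPM against 3.26 and 5.54 CPM, 18.8-fold (12.1 to 30.9) and 10.3-fold (7.11 to 15.5) higher. Atf6, the sensor that is cut in the Golgi and then enters the nucleus, was 3.09-fold (2.70 to 3.55) and 3.65-fold (3.14 to 4.25) higher. Both genes among the 41 that were named above as downstream of PERK stayed under 2-fold. Atf4 had ratios of 1.22 (1.13 to 1.31) and 1.28 (1.18 to 1.40). Ddit3, which encodes the death-associated factor CHOP (chr10:127290774-127296288), was at 37.4 and 44.4 CPM in immunoglobulin-rich barcodes and at 50.6 and 68.0 CPM in cluster 0. Its ratios of 0.739 (0.640 to 0.856) and 0.653 (0.568 to 0.751) were the only ones below 1 among the 41 genes. Without barcodes holding 3 or more UMIs of other lineages' markers, which left 58 in the wild type library, the ratio there turned to 1.31. Ddit3 is listed under 2 identifiers, and the second had 0 UMIs in both libraries.

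All 7 genes of translocation and signal peptide removal were higher, with median ratios of 11.9 and 8.75. Tram2, a translocating-chain protein known for collagen export, was at 99.9 and 110 CPM against 4.72 and 2.10 CPM, 21.2-fold and 52.3-fold higher. The gap between these folds comes with 29 and 11 UMIs in cluster 0, and the intervals are 14.7 to 31.7 and 29.1 to 105. Its relative Tram1 was 4.02-fold (3.70 to 4.37) and 3.19-fold (2.91 to 3.50) higher, the smallest ratio of the 7 in each library. Ssr4, a subunit of the translocon-associated complex, was 14.6-fold (13.9 to 15.3) and 12.1-fold (11.5 to 12.8) higher, and Sec61b, a subunit of the channel itself, 7.01-fold (6.72 to 7.31) and 5.56-fold (5.31 to 5.83). The subunits of the signal peptidase, which removes the signal peptide, were 14.4-fold (13.6 to 15.1) and 11.4-fold (10.8 to 12.0) (Sec11c, the catalytic one), 11.9-fold (11.2 to 12.7) and 8.75-fold (8.17 to 9.39) (Spcs1) and 7.32-fold (6.89 to 7.79) and 5.92-fold (5.54 to 6.33) (Spcs2) higher.

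Of the 11 chaperones and co-chaperones, 10 were higher. Hsp90b1, the ER form of HSP90, was at 9044 and 7936 CPM against 490 and 514 CPM, 18.5-fold (17.8 to 19.1) and 15.4-fold (14.9 to 16.0) higher. Mzb1, a B lineage partner of Hsp90b1 needed for antibody secretion, was at 8630 and 5955 CPM against 506 and 521 CPM, 17.1-fold (16.5 to 17.7) and 11.4-fold (11.0 to 11.9) higher. The central ER chaperone BiP, encoded by Hspa5 (chr2:34771970-34777547), was at 2622 and 2695 CPM against 495 and 484 CPM, 5.30-fold (5.10 to 5.50) and 5.57-fold (5.35 to 5.81) higher. Of these 3, Hspa5 had the smallest ratio and the only one larger in the library labelled transgenic. Creld2, a stress-induced disulfide-linked chaperone, was 32.2-fold (28.7 to 36.3) and 27.8-fold (24.5 to 31.8) higher, Sdf2l1 13.6-fold (12.3 to 15.0) and 13.9-fold (12.4 to 15.5), and Manf, a secreted ER stress protein, 11.3-fold (10.7 to 12.1) and 9.67-fold (9.06 to 10.3). The J-domain partners of BiP were 10.5-fold (9.67 to 11.5) and 8.77-fold (8.02 to 9.62) (Dnajc3), 7.50-fold (6.86 to 8.21) and 6.07-fold (5.49 to 6.74) (Dnajb11) and 6.50-fold (5.55 to 7.64) and 4.39-fold (3.76 to 5.16) (Dnajb9) higher. Of the lectin chaperones of N-glycans, Calr was 5.20-fold (4.91 to 5.51) and 4.56-fold (4.29 to 4.86) higher, and Canx stayed under 2-fold with ratios of 1.76 (1.64 to 1.90) and 1.76 (1.63 to 1.90).

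All 7 disulfide and proline isomerases were higher. Fkbp11, a proline isomerase of secretory tissue (chr15:98724366-98728198), was at 652 and 410 CPM against 11.1 and 7.84 CPM, 58.9-fold (46.4 to 75.9) and 52.4-fold (38.5 to 73.1) higher. Its family member Fkbp2 was 15.1-fold (13.8 to 16.6) and 13.6-fold (12.2 to 15.1) higher, and the cyclophilin gene Ppib 5.27-fold (5.06 to 5.50) and 4.31-fold (4.11 to 4.52). Among the disulfide isomerases, Pdia4 was 11.2-fold (10.5 to 12.0) and 11.7-fold (10.8 to 12.6) higher, Pdia6 8.16-fold (7.65 to 8.71) and 7.28-fold (6.77 to 7.83), and P4hb (the founding member PDI) 5.17-fold (4.77 to 5.62) and 4.88-fold (4.44 to 5.38). Pdia3, which works with Calr and Canx on glycoproteins, had the smallest ratio of the 7, 2.82 (2.67 to 2.97) and 2.90 (2.73 to 3.08).

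Of the 6 genes of degradation, 5 were higher. Derl3, a membrane protein of the export channel for misfolded chains, was at 607 and 604 CPM against 8.96 and 8.41 CPM, 67.8-fold (52 to 90) and 71.8-fold (53.4 to 99.0) higher. Edem1 and Edem2, which trim mannose from chains that fail to fold, were 46.7-fold (41.1 to 53.3) and 25.3-fold (22.4 to 28.7) higher (Edem1) and 27.8-fold (24.5 to 31.6) and 29.6-fold (25.5 to 34.5) higher (Edem2). Sel1l, the adaptor of the ligase HRD1, was 15.8-fold (13.0 to 19.4) and 11.7-fold (9.77 to 14.1) higher, and Herpud1, a stress-induced part of that complex, 4.79-fold (4.52 to 5.09) and 4.05-fold (3.81 to 4.30). Syvn1, which encodes HRD1 itself, stayed under 2-fold with ratios of 1.81 (1.61 to 2.02) and 1.89 (1.68 to 2.13); it passed 2-fold in 5 alternatives for the wild type library and 4 for the other. The adaptor was thus higher by far more than the ligase it serves. Lman1, the cargo receptor for export to the Golgi, was 26.3-fold (23.2 to 30.1) and 18.4-fold (16.1 to 21.2) higher.

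Other genes of the same pathways, taken from lists for each step, were also higher for the most part. Of 17 other genes of translocation, 14 were higher in each library, with Ssr2 (11.1-fold and 7.66-fold) and Spcs3 (10.6-fold and 8.11-fold) at one end and Sec11a (ratios 1.19 and 1.31) and Srp14 (1.39 and 1.46) at the other. Sec11a is the alternative catalytic subunit to Sec11c, so the 2 forms differed between the classes by very unlike amounts. Of 23 genes of glycosylation and folding with enough UMIs, 16 and 17 were higher. Prdx4 and Txndc5, which support disulfide formation, were highest at 34.1-fold and 26.5-fold and at 32.4-fold and 26.8-fold, and Stt3b (0.564 and 1.02) and Ero1lb (0.790 and 0.787) were lowest. Stt3b is a catalytic subunit of the oligosaccharyltransferase that adds N-glycans, and Ero1lb an oxidase that recharges disulfide isomerases.

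Of 19 genes of traffic between ER and Golgi, 18 and 16 were higher. Kdelr3, a receptor that returns escaped ER proteins, was 42.9-fold (18.2 to 133) and 21.5-fold (10.3 to 54.0) higher on 5 and 7 UMIs in cluster 0, and the coat gene Sec24d 15.8-fold and 12.8-fold. The coat gene Sec24c (0.857 and 1.11) had the lowest ratio and Sec31a (2.21 and 1.84) the next. Of 19 and 18 further genes of degradation and stress signalling with enough UMIs, 16 and 15 were higher. Bhlha15, which encodes the secretory cell factor MIST1, was highest at 45.6-fold (19.4 to 141) and 55.1-fold (18.7 to 268) on 5 and 3 UMIs in cluster 0, and Creb3l2 followed at 16.8-fold and 15.7-fold. The lowest was Ppp1r15a, the phosphatase subunit that ends the PERK signal, at 0.440 and 0.530. Eif2ak3, which encodes PERK, followed at 1.01 (0.879 to 1.16) and 0.832 (0.723 to 0.959). This pair was named by rank and does not stand for the PERK arm. The list also holds Asns, Trib3, Chac1 and Ppp1r15b, whose values are not given here, and in all 1 and 0 of its genes were lower.

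Markers on both sides separated the classes. Of 12 other plasma cell genes, 11 and 10 were higher. Ccr10, the homing receptor of IgA plasma cells, was 169-fold and 177-fold higher, Ly6c2 110-fold and 94.3-fold, and Tnfrsf13b, which B cells also carry, 2.35-fold and 1.81-fold. Cd38 was lower, at 0.125 and 0.148 of its level in cluster 0. Of 17 B cell identity genes outside immunoglobulin, 17 were lower in each library. Fcmr was at 0.0296 and 0.0459 and Spib at 0.0313 and 0.0565, while Cd74 (0.313 and 0.437) and Cd79b (0.403 and 0.343) were the closest to 1. Among genes on no list, those with interval bounds farthest from 1 in both libraries were a (agouti), Prg2, Slpi, Cacna1h, Tmem176a, Tigit, Cxcl10 and Pycr1. Slpi, a secreted protease inhibitor, was at 2577 and 3189 CPM against 54.9 and 46.4 CPM. The ratios of a, 200 (68.1 to 969) and 212 (58.5 to 1754), and of Cacna1h, 302 (54.0 to 11944) and 88.1 (34.3 to 324), rest on 1 to 4 UMIs in cluster 0. Of the 41 genes, 19 and 18 were among the 100 genes with the highest lower bounds.

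At 20% or more immunoglobulin UMIs, the differences were spread over the barcodes rather than carried by a few. In barcodes with 20% or more immunoglobulin UMIs (1114 and 973, which hold 93.2% and 92.3% of the non-immunoglobulin UMIs of all immunoglobulin-rich barcodes), 39 of the 41 genes had a UMI in over 50% of barcodes, and 26 and 21 genes in over 90%. In cluster 0 the count over 50% was 5 in each library. Over all immunoglobulin-rich barcodes, the 5 with most UMIs of a gene gave between 1.35% (Ssr4) and 5.88% (Ddit3) of its total in the wild type library. In the other library they gave between 1.89% (Ssr4) and 8.60% (Ddit3). Depth differs between the classes, so barcodes were also thinned to 500 UMIs outside immunoglobulin genes. This left out 12 and 22 of the barcodes with 20% or more immunoglobulin UMIs and 3 and 2 cells of cluster 0. Xbp1 then had a UMI in 78.5% and 71.6% of barcodes against 4.65% and 4.35% of cluster 0, where unthinned shares were 98.2% and 97.5% against 20.5% and 17.9%. T-like cells, which have a median of 3740 and 3503 UMIs, gave a thinned 5.57% and 4.64% for Xbp1. Xbp1 is not typical: the median thinned share over the 41 genes was 36.1% and 30.6%, against 4.65% and 4.47% in cluster 0. Without thinning, Tnfrsf17 had a UMI in 84.6% and 79.7% of the barcodes with 20% or more immunoglobulin UMIs. It had one in 0.505% and 0.683% of cluster 0 and in 0.220% and 0.405% of T-like cells, where it had 1 and 3 UMIs in all. Mzb1 was seen, also without thinning, in 61.4% and 59.3% of cluster 0 cells but in 15.2% and 10.7% of T-like cells, which are deeper.

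Across all 10 deposited clusters, 36 of the 41 genes had their highest level in immunoglobulin-rich barcodes in the wild type library and 38 in the other, with an interval above the next group for 34 and 37. Of all genes tested, 8.79% and 8.22% had their highest level there. The exceptions in both libraries were Canx, highest in the macrophage-like cluster 1 (375 and 318 CPM against 280 and 281), Ddit3, and Ern1. Ern1 stood at 131 and 66.6 CPM in the unnamed lymphoid cluster 2 against 61.2 and 57.2 CPM in immunoglobulin-rich barcodes, and only in the wild type library is that difference outside the interval (ratio 0.467, 0.394 to 0.557, against 0.858, 0.723 to 1.02). Syvn1 and Irf4 were highest in the unnamed cluster 7 in the wild type library (133 and 261 CPM against 114 and 240), with intervals that hold 1. Cluster 7 has few UMIs per cell (median 897 and 969.5) and carries B cell markers at 3652 and 4008 CPM and epithelial markers at 11177 and 15104 CPM.

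The group next in order was most often not a lymphocyte. The fibroblast-like cluster 9, another secretory cell type, came next for 13 and 20 of the 41 genes, 12 of them in both libraries. It has only 99 and 106 cells, and some of these ranks rest on few UMIs, such as 5 and 9 for Fkbp11. For Lman1 it stood at 174 and 175 CPM, for Hsp90b1 at 1105 and 1040 CPM, and for Tram2 at 52.6 and 31.4 CPM (13 and 9 UMIs). Immunoglobulin-rich barcodes had 1021 and 753, 9044 and 7936, and 99.9 and 110 CPM. Cluster 0 was next for Mzb1 in both libraries, for Atf4 in the wild type library and for Irf4 in the other, and it was among the lowest 3 of the 10 clusters for 17 and 20 genes. Ratios to the next group are no larger than those to cluster 0, since cluster 0 is one of the groups: for Xbp1 17.1 (monocyte-like cluster 3) and 11.0 (neutrophil-like cluster 6), for Hspa5 2.78 and 2.67, for Pdia3 1.31 and 1.49. Sdc1 stood at 128 CPM in monocyte-like cells of the wild type library and at 28.3 CPM in those of the other, which was its next group in the wild type library alone. Over the clusters, the 41 genes took between 0.234% and 0.798% of UMIs outside immunoglobulin genes in the wild type library and between 0.404% and 0.788% in the other, the neutrophil-like cluster lowest in each.

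**Figure D2:**
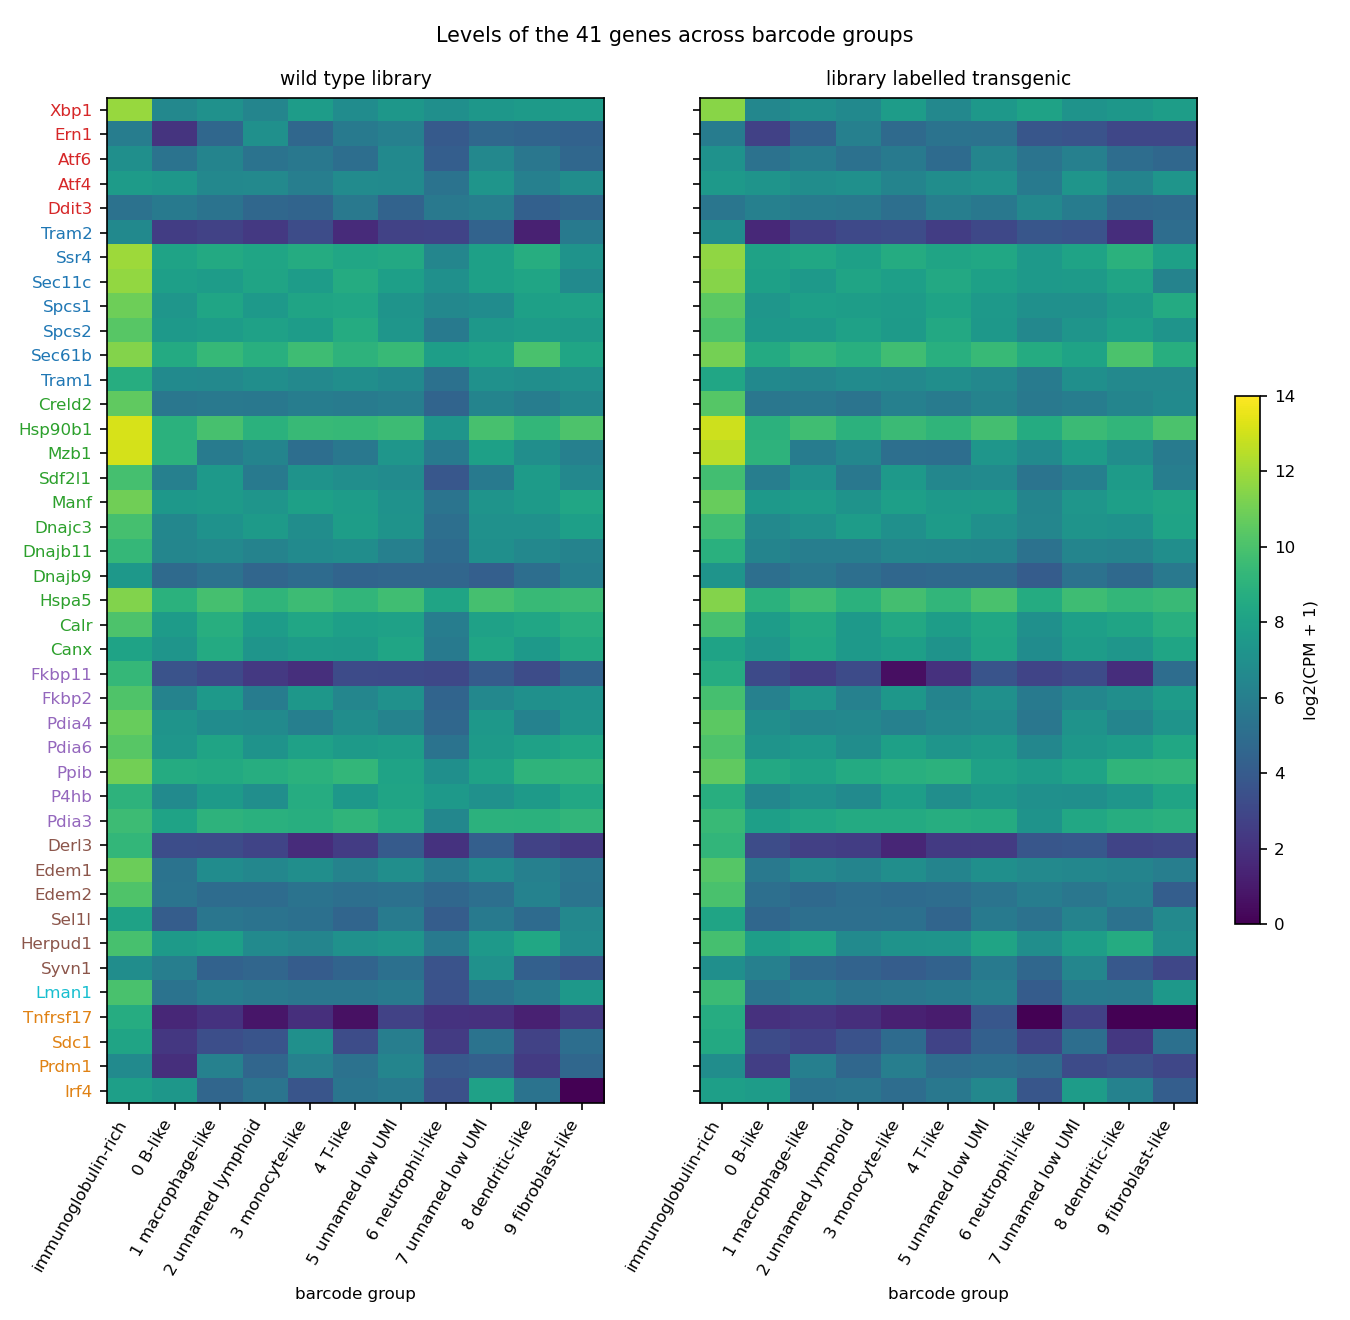
Level of the 41 genes (rows, names coloured by role) as log2(CPM + 1), CPM being outside immunoglobulin genes, in immunoglobulin-rich barcodes and the 10 deposited clusters (columns) of the wild type library (left) and the library labelled transgenic (right). The first column is the brightest for 36 genes on the left and 38 on the right, while Canx, Ddit3 and Ern1 are brighter elsewhere in both.

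Within the immunoglobulin-rich barcodes the 41 genes differed in how their levels went with the immunoglobulin share. Barcodes with 60% or more immunoglobulin UMIs (419 and 325) were set beside those with 20 to 40% (226 and 267). Levels were above in both libraries, with intervals that do not hold 1, for 20 genes: Xbp1, Derl3, Sec11c, Ssr4, Spcs1, Spcs2, Dnajb9, Dnajc3, Herpud1, Edem1, Edem2, Sel1l, Ern1, Fkbp2, Tram1, Tram2, Sdc1, Prdm1, Tnfrsf17 and Irf4. They were below in both for 6: Hspa5, Pdia3, Calr, Canx, Ppib and Fkbp11. Over all genes tested, 5.43% were above and 23.4% below in both. Such shares, here and below, are not matched for abundance, and an interval excludes 1 more easily for a gene with many UMIs. The first set holds Xbp1 and Ern1, 5 of the 6 degradation genes, all 4 identity genes and 6 of the 7 translocation genes, beside Dnajb9, Dnajc3 and Fkbp2, and the second set holds chaperones and isomerases only. Xbp1 went from 2363 over 3964 to 5102 CPM along the bins 20 to 40%, 40 to 60% and 60% or more in the wild type library, and from 1946 over 3279 to 4264 CPM in the other. Edem2 went from 699 over 1229 to 1544 CPM and from 619 over 1109 to 1477 CPM. Hspa5 instead stood at 2717, 2885 and 2376 CPM and at 2627, 3104 and 2534 CPM, with the middle bin highest in both libraries. Calr went from 1317 over 1112 to 852 CPM in the wild type library and stood at 1008, 1108 and 893 CPM in the other.

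**Figure D3:**
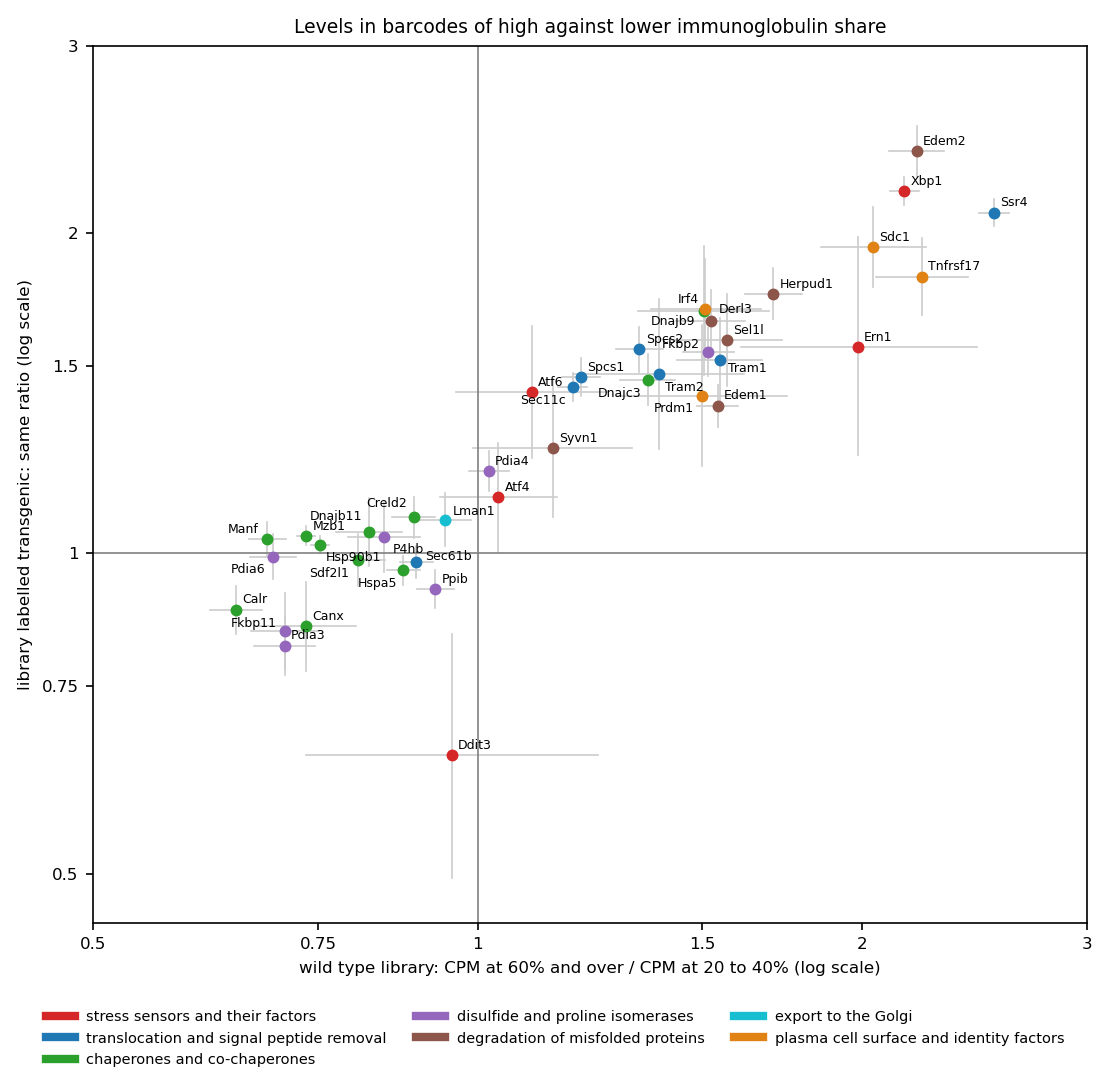
Ratio of the level in barcodes with 60% or more immunoglobulin UMIs to that in barcodes with 20 to 40%, wild type library on the horizontal axis and library labelled transgenic on the vertical axis (both log axes), 1 point per gene coloured by role, grey lines being 95% counting intervals. Xbp1 (2.16 and 2.19), Edem2 (2.21 and 2.39) and Ssr4 (2.54 and 2.09) lie at the upper right, and Calr (0.646 and 0.886), Pdia3 (0.706 and 0.819) and Canx lie at the lower left.

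The size of these ratios, and for the set of 6 the direction, depends on the total. Jchain took 47118 and 53601 CPM in the bin of 20 to 40% and 200692 and 197000 CPM in the bin of 60% or more. With Jchain left out of the total, 29 of the 41 genes were above in both libraries and 0 were below in both, against 11.2% and 14.1% of all genes tested. Of the 6, Hspa5 (1.04 and 1.14) and Ppib (1.10 and 1.09) then lay above 1 in both libraries. Calr (0.771 and 1.04) and Canx (0.875 and 1.01) lay on either side, and Pdia3 (0.842 and 0.966) and Fkbp11 (0.843 and 0.997) stayed below 1. Other values moved with the bins too: summed macrophage markers were at 1408 and 2478 CPM in the lower bin and 123 and 100 CPM in the upper, and median UMIs were 21147 and 17107 against 25979 and 27492. Their part in the result was not tested. The order among the 41 genes does not depend on the total, since a total divides every gene alike. At the limit that chose the barcodes, the median level over the 41 genes was 129 and 121 CPM at 4 to 5% immunoglobulin UMIs and 164 and 144 CPM at 5 to 6%. At 5 to 6%, Mzb1 was at 464 and 270 CPM, below its 506 and 521 CPM in cluster 0. B cell markers there were at 4717 and 4181 CPM, against 7542 and 7480 in cluster 0. The 41 genes together took 0.981% and 0.772% of UMIs outside immunoglobulin genes there, against 0.581% and 0.578% in cluster 0.

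Nearly all plasma cells here were of the IgA class. Of barcodes with 20% or more immunoglobulin UMIs, 1094 and 928 had the IgA gene Igha as their leading heavy chain, 10 and 36 an IgG gene and 10 and 9 the IgM gene, so the last 2 classes are small samples. Tnfrsf17 was at 437 and 451 CPM in IgA barcodes, at 71.6 and 118 CPM in IgG barcodes (6 and 38 UMIs) and at 121 and 197 CPM in IgM barcodes (16 and 14 UMIs). The IgG to IgA ratio was 0.164 (0.0601 to 0.357) and 0.261 (0.184 to 0.358), the widest gap from 1 of the 41 genes in each library. Mzb1 went the other way, with 8892 and 6223 CPM in IgA, 11516 and 8109 CPM in IgG and 12208 and 7566 CPM in IgM barcodes. Above in IgG barcodes in both libraries were Mzb1, Hspa5, Hsp90b1, Pdia4, Ssr4, Creld2, Manf, Ppib and Prdm1, and below were Spcs1 and Tnfrsf17; over all genes tested 0.902% were above and 0.436% below in both. Markers of other cells also differed between the classes. From IgA to IgG barcodes, summed monocyte markers were at 1825 and 4415 CPM in the wild type library and at 2554 and 7503 CPM in the other, macrophage markers at 580 and 1420 and at 1109 and 3010 CPM, and B cell markers at 1433 and 3747 and at 1503 and 2574 CPM. In IgM barcodes macrophage markers were at 114 and 3622 CPM and B cell markers at 1511 and 5376 CPM. The monocyte list holds Ly6c2, also among the plasma cell genes above, so its sum is not one of monocytes alone. That sum was higher at 60% or more than at 20 to 40% immunoglobulin UMIs: 2290 against 1185 CPM (wild type) and 3752 against 1754 CPM. What these markers contribute was not tested. In IgM barcodes Xbp1 (0.752 and 0.493), Edem1 (0.644 and 0.535), Edem2 (0.506 and 0.579) and Tnfrsf17 were below in both libraries, and 9 genes, mostly chaperones and isomerases, were above: Mzb1, Pdia3, Pdia6, Calr, Sec61b, Dnajb11, Herpud1, Ddit3 and Ppib. Over all genes tested, 0.954% were above and 0.477% below in both. Neither these shares nor those for IgG are matched for abundance, and scarce genes can hardly pass with so few barcodes. Cells of 1 class can descend from few clones, and clones were not separated here.

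The last question was whether the secretory genes differed between the libraries. In immunoglobulin-rich barcodes 0 of the 41 genes were higher in the library labelled transgenic and 1 was lower, where higher or lower means at least 1.5-fold with an interval that does not hold 1. Over all genes tested, 16.7% were higher and 2.77% lower. The gene that passed was Fkbp11, at 652 CPM in the wild type library and 410 CPM in the library labelled transgenic, which is 0.630 times as much (0.607 to 0.653). It stayed between 0.552 and 0.685 over 16 settings, but is not called at 2-fold or when IgA and other barcodes are given equal weight (0.685). The median log2 ratio of the 41 genes was -0.19, against 0.13 over all genes tested, so the genes as a group lay below 1 where genes at large lay above. Intervals lay wholly below 1 for 27 genes and wholly above 1 for 8, against 14% and 30.1% of all genes tested, which are not matched for abundance.

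By role, the values lay below 1 for all 7 isomerases (0.630 to 0.889), 6 of the 7 translocation genes and 9 of the 11 chaperones, with intervals that do not hold 1. Mzb1 was at 0.690 (0.683 to 0.697), Edem1 at 0.692, Ppib at 0.720, Lman1 at 0.737, Spcs1 and Dnajb11 at 0.744 each, and Xbp1 at 0.803 (0.792 to 0.815). Hspa5 stood apart from its fellow chaperones at 1.03 (1.01 to 1.04), with Canx at 1.00. The surface and identity genes were not among the lower ones: Sdc1 was at 1.25 (1.19 to 1.31), Prdm1 at 1.09, Tnfrsf17 at 1.00 and Irf4 at 0.980. Sensors and degradation genes lay on either side: besides Xbp1 and Edem1, Edem2 was at 0.890, while Ddit3 was at 1.19 (1.04 to 1.35), Atf6 at 1.12, Syvn1 at 1.10 and Sel1l at 1.08. Spread between animals is not measured here, so none of these ratios can be told from a difference between samples of 1 genotype.

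**Figure D4:**
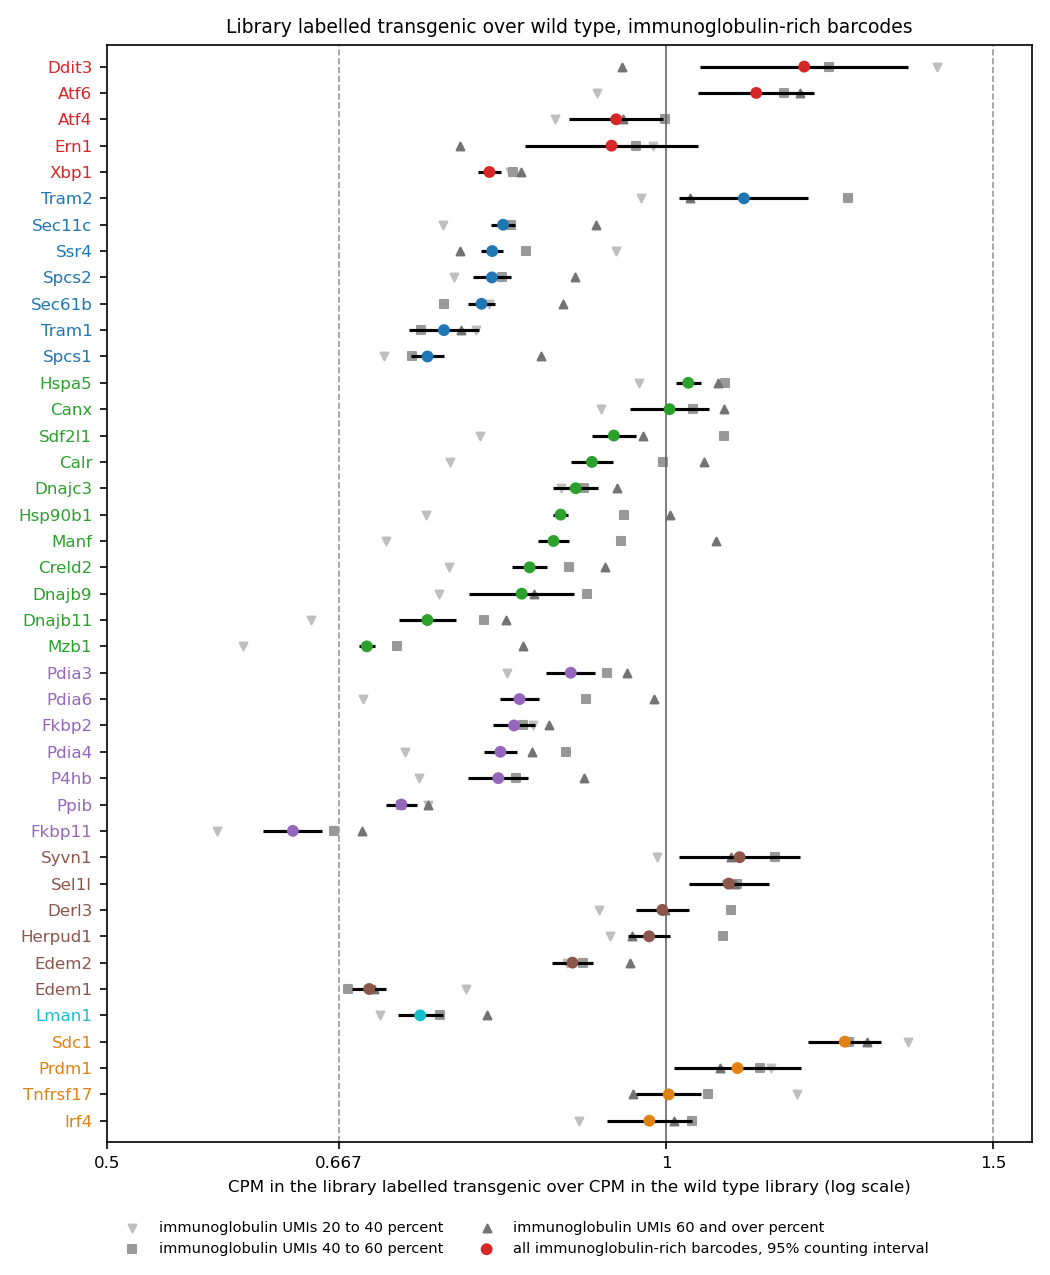
Ratio of the level in the library labelled transgenic to that in the wild type library (log axis) for the 41 genes, grouped and coloured by role: circles with black bars are all immunoglobulin-rich barcodes with 95% counting intervals, and grey symbols are 3 bins of immunoglobulin share. Dashed lines mark 1.5-fold either way; Fkbp11 alone has its circle beyond one, and Sdc1 lies farthest to the right at 1.25.

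Other values differed between the libraries in the same barcodes. Markers of T cells and macrophages were higher in the library labelled transgenic and those of neutrophils lower, as given above, and 10 of the 17 B cell identity genes were higher, Ciita (2.45), H2-Ab1 (2.22) and H2-Aa (2.60) among them. Barcodes with 5 to 20% immunoglobulin UMIs were 307 of the wild type and 488 of the other library, with median UMIs of only 707 and 793.5. The part of these in the ratios was not tested. Within bins, the median ratio of the 41 genes was 0.821 at 20 to 40% immunoglobulin UMIs, 0.907 at 40 to 60% and 0.947 at 60% or more, against 1.07, 1.08 and 1.01 over all genes tested. In all 3 bins 24 of the 41 genes (and 18.8% of all genes tested) lay below 1, Mzb1 (0.592, 0.717 and 0.837), Fkbp11 (0.573, 0.662 and 0.686), Edem1 and Xbp1 among them, and Sel1l, Sdc1 and Prdm1 lay above 1. In IgA barcodes alone 30 of the 41 genes lay below 1, with a median of 0.890, as did 39% of all genes tested. How many genes pass 1.5-fold depends on the scaling: it was 8 lower with median-of-ratios scaling and 7 with the mean of each barcode's CPM, with Mzb1, Spcs1, Edem1, Ppib, Lman1 and Fkbp11 in both. Without the barcodes holding 3 or more UMIs of other lineages, which leaves 58 and 151, it was 12 lower and 1 higher (Ern1, 1.81), and Hspa5 was among the lower ones at 0.508.

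In cluster 0 the median ratio of these genes lay nearer 1 than in immunoglobulin-rich barcodes. Single ratios ranged more widely, from 0.445 to 2.10 against 0.630 to 1.25, on far fewer UMIs. Of the 41, 1 was higher (4.09% of all genes tested) and 1 lower (2.35%), and the median ratio was 1.00. Sdc1 was at 3.91 CPM in the wild type library and 8.22 CPM in the other, 2.10-fold higher (1.25 to 3.62) on 24 and 43 UMIs. Tram2 was at 4.72 and 2.10 CPM, 0.445 of the wild type level (0.201 to 0.918), with 29 and 11 UMIs. Mzb1, Xbp1 and Fkbp11 were at 1.03 (0.978 to 1.09), 0.936 (0.826 to 1.06) and 0.708 (0.468 to 1.06). Whether the difference between the libraries is unlike in immunoglobulin-rich barcodes and in cluster 0 was not tested, having 1 library per genotype.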

How the data were processed

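Per the labels, live CD45+ colon lamina propria cells of 1 wild type and 1 transgenic library were sequenced with 10x Genomics 5′ chemistry. Per the submitters' processing notes, Cell Ranger 5.0.0, Seurat 4.0 and the mm10 build were used, with their roles not stated. The deposited tables hold raw UMI counts per gene and barcode (32285 genes, 9855 and 10143 barcodes, 69346746 and 58884332 UMIs). Per the file headers, the deposited metadata hold cluster numbers, UMI counts and the percent of immunoglobulin and mitochondrial UMIs, for 6466 and 7026 cells.

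Counts were summed over barcodes of each group and divided by the UMIs outside immunoglobulin genes (symbols Igh, Igk and Igl, without 3 other genes) to give CPM. The summed immunoglobulin percent differed from the deposited percent by at most 0.199 and 0.477 points. Ratios carry exact conditional binomial 95% intervals. These and the shares of barcodes cover counting error only, and no p-value was computed. Genes needed 20 UMIs over both groups. For 38 repeated symbols the first identifier was used. Clusters were named from marker lists; clusters 2, 5 and 7 stayed unnamed. Doublets were not removed. An alternative left out barcodes with 3 or more UMIs of markers of other lineages. Ly6c2 is among these markers, so that alternative can also leave out plasma cells that are not doublets. Promoters are RefSeq's (GRCm38.p6); gene positions come from mm10 gene models, found by Ensembl ID. Python 3.11.15, numpy 2.4.6, scipy 1.17.1 and pandas 2.3.3 were used. The ratios, intervals and calls were tested on counts simulated from the cluster 0 profile with counting error alone. Every one of the 41 genes is named; of each pathway list, the 2 highest and 2 lowest in the wild type library, and the 8 leading genes on no list. The genes, the lists and most alternatives were chosen with earlier results of these data known. Leaving Jchain out of the total and weighting bins equally were added after seeing the data.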

Additional observations from a re-analysis of the deposited data

How the results depend on the processing

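Over the alternatives run, 33 to 38 (wild type) and 32 to 38 (labelled transgenic) of the 41 genes were higher in immunoglobulin-rich barcodes than in cluster 0, and none of the genes called in the values as reported changed direction. With immunoglobulin UMIs kept in the total, 33 and 32 were higher, Ddit3 was lower in each library (count 1), and the median log2 ratio was 2.45 and 2.24; the larger total lowers each level by construction. Pdia3, Atf6 and Tram1 then no longer passed 2-fold in either library, nor did Herpud1 in the library labelled transgenic. The highest level lay in immunoglobulin-rich barcodes for 30 to 40 genes. Between the libraries, the count of lower genes in immunoglobulin-rich barcodes was 1 and went to 12, with 1 higher (Ern1), without barcodes with 3 or more UMIs of other lineages, which left 58 and 151 barcodes; to 4 with 200 to 2200 genes per barcode; to 7 with the mean of each barcode's CPM; to 8 with median-of-ratios scaling; and to 0 at 2-fold and with equal weight to IgA and other barcodes. The cause was not tested. The median log2 ratio stayed between -0.40 and -0.17. In cluster 0, 3 genes were higher with the mean of each cell's CPM, and 0 were lower with a minimum of 50 UMIs, which Tram2 does not reach. For single genes, 2032 values kept their side of the threshold, 44 came to pass it and 11 no longer passed. No paired analysis was possible because there is 1 library per genotype. Depth limits the genes that are scarce in cluster 0: Tnfrsf17, Prdm1, Tram2, Ern1 and Sdc1 had 11 to 43 UMIs there. Fkbp11 had 68 (wild type) and 41 (labelled transgenic) UMIs there, and Derl3 had 55 and 44.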
